A study of Mus musculus with 15 samples.

Results

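The comparison set 3 arrays of uterine RNA from ovariectomized adult mice collected 24 hr after estriol (E3) against 3 arrays from mice collected 24 hr after saline, out of 15 arrays in 5 groups. The members are all arrays that carry those labels. The mice of both groups were of the C57bl6/J strain, were 10 weeks old or more, and had rested for 10 to 14 days after removal of the ovaries. They then received 250 ng of E3 in 100 μL of saline, or the saline vehicle alone, by intraperitoneal injection. The other groups were E3 2 hr, given the same dose and strain, E2 24 hr (250 ng of estradiol, the same strain) and E2 2 hr (a C57bl6/Jx129 background), with 3 arrays each. The labels give an *Esr1* genotype, wild type, for the E2 2 hr group only. The E2 2 hr arrays entered the estimate of spread and the filter on dim probes, and no comparison. Saline was collected only at 24 hr, and those arrays are the reference for E3 2 hr as well. The study's methods describe RNA made from the pooled tissue of several uteri in a group, whereas the labels describe each uterus being homogenized. Whether an array stands for 1 mouse or for a pool is thus not settled, and p-values measure the spread between these arrays, which may be technical.

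Estriol is a natural estrogen that carries an additional hydroxyl group compared with estradiol (E2), binds the estrogen receptor, and is regarded as short acting because it is cleared and leaves the receptor quickly. In the mouse uterus an estrogen first induces a transient wave of transcription factors and signaling genes within hours, together with water uptake. About a day later the luminal epithelium replicates its DNA and divides, and it produces secreted and barrier proteins. The question of the comparison is what a single dose of a short-acting estrogen still changes in the late phase.

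The tissue was checked against marker lists. All 15 uterus markers (*Esr1*, *Pgr*, *Hoxa10*, *Krt8*, *Myh11* and others) were well above background on all 6 arrays, with list medians of 2.91 to 3.23 on a log2 scale where 0 is the 75th percentile of the array. Levels below are on this scale unless a fold or a log2 fold change is named. Liver transcripts were seen on all 6 arrays and were highest on saline replicate 1. The median of the liver list was -2.41, -3.96 and -4.15 on the saline arrays and -5.59, -5.86 and -6.02 on the E3 24 hr arrays. Lymphocyte transcripts crossed the groups. The summed linear level of the 52 lymphocyte genes was 159.5 on saline replicate 2 and 183.2 on E3 24 hr replicate 3, against 23.9 to 30.9 on the other 4 arrays. Squamous keratins marked a further array. *Krt5*, a keratin of stratified epithelium, read 0.86, -1.23 and -0.65 on the saline arrays and 2.40, 5.39 and 2.03 on the E3 24 hr arrays, and *Krt14* read -0.98, -2.83 and -2.57 against 0.25, 4.18 and -0.27. E3 24 hr replicate 2 was the highest for both. Exocrine pancreas transcripts were low on the 6 arrays (summed linear level of 24 genes 0.753 to 1.05) but not in the groups used for the later contrasts. Their sum was 574.2 on E2 24 hr replicate 2 and 9.06 on replicate 3, against 0.809 on replicate 1. On E3 2 hr it was 1382 on replicate 2 and 21.0 on replicate 3, against 0.684 on replicate 1. All 3 E3 24 hr arrays were on slide 5 and the saline arrays on slides 3 and 4, so slide and treatment cannot be told apart. The E3 2 hr arrays were on slide 4 and the E2 24 hr arrays on slides 6 and 7. Slide thus cannot be told apart from time or compound in the later contrasts either.

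**Figure D1:**
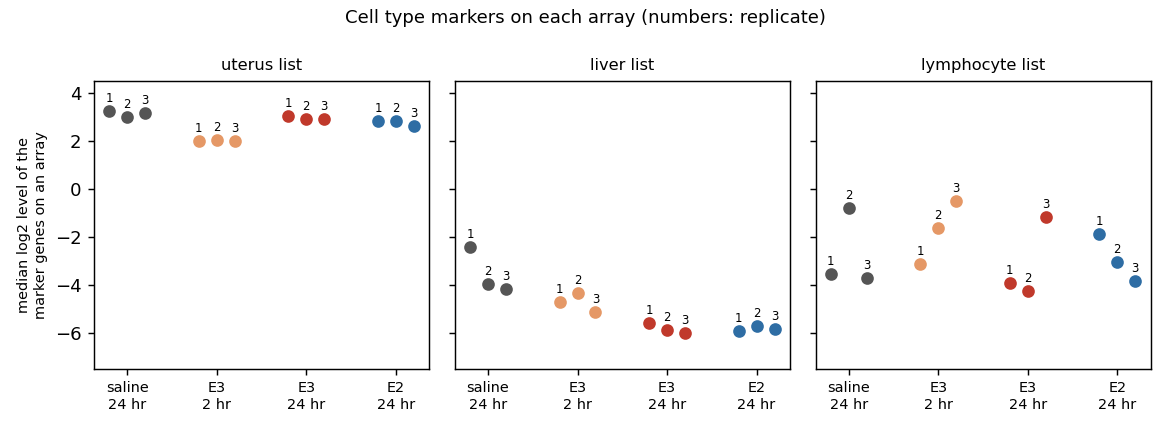
Median log2 level of the uterus, liver and lymphocyte marker lists on each array (vertical axis, 0 is the 75th percentile of the array) for saline 24 hr, E3 2 hr, E3 24 hr and E2 24 hr, with the replicate number above each point. Uterus markers lay between 2.91 and 3.23 on the 6 arrays compared, liver markers were highest on saline replicate 1, and among the 6 arrays lymphocyte markers were highest on saline replicate 2 and E3 24 hr replicate 3.

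A probe was called when the limma p was below 0.001 and the change was at least 2-fold. In E3 24 hr against saline, 1333 of 34760 tested probes were called (3.83%), 642 higher (1.85%) and 691 lower (1.99%), and 11839 (34.1%) had an adjusted p below 0.05. By gene, with the brightest probe standing for each, 688 of 17719 were called (3.88%), 413 higher (2.33%) and 275 lower (1.55%). The median log2 fold change over all tested genes was 0.06. With normexp background correction the calls split into 491 higher and 64 lower, with quantile normalization into 761 and 537, and without E3 24 hr replicate 3 into 688 and 455. The normexp correction moved the median over tested probes from -0.01 to 0.30. The count of falls thus changed more with the handling of background than the count of rises did. Of the named genes called, 28 of 35 that fell and 10 of 56 that rose were no longer called with normexp correction. The other probes of a gene were not always called with the brightest. In its direction, 1 of 3 probes was called for *Coch*, *Ccnd2* and *Fkbp5*. It was 2 of 5 for *Erbb3*, 2 of 4 for *Adamts2*, and 1 of 2 for *Fdps*, *Col6a2*, *Cldn1* and *Dlgap5*. All were called for *Muc4* (5), *Ccnb1* (3) and *Col1a1* (3). *Gpi1*, not called, had 2 probes of opposite sign.

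Function was read from 28 gene lists with 693 tested genes, of which 89 were called higher and 12 lower. Of all tested genes 2.33% were called higher and 1.55% lower, and 31.2% had an adjusted p below 0.05. The counts of each list below stand beside these shares. In 21 lists at least 1 gene was called. The list with the largest median was that of mitosis genes, followed by small proline-rich proteins, keratins, cholesterol synthesis, epithelial secreted proteins, and collagens.

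**Figure D2:**
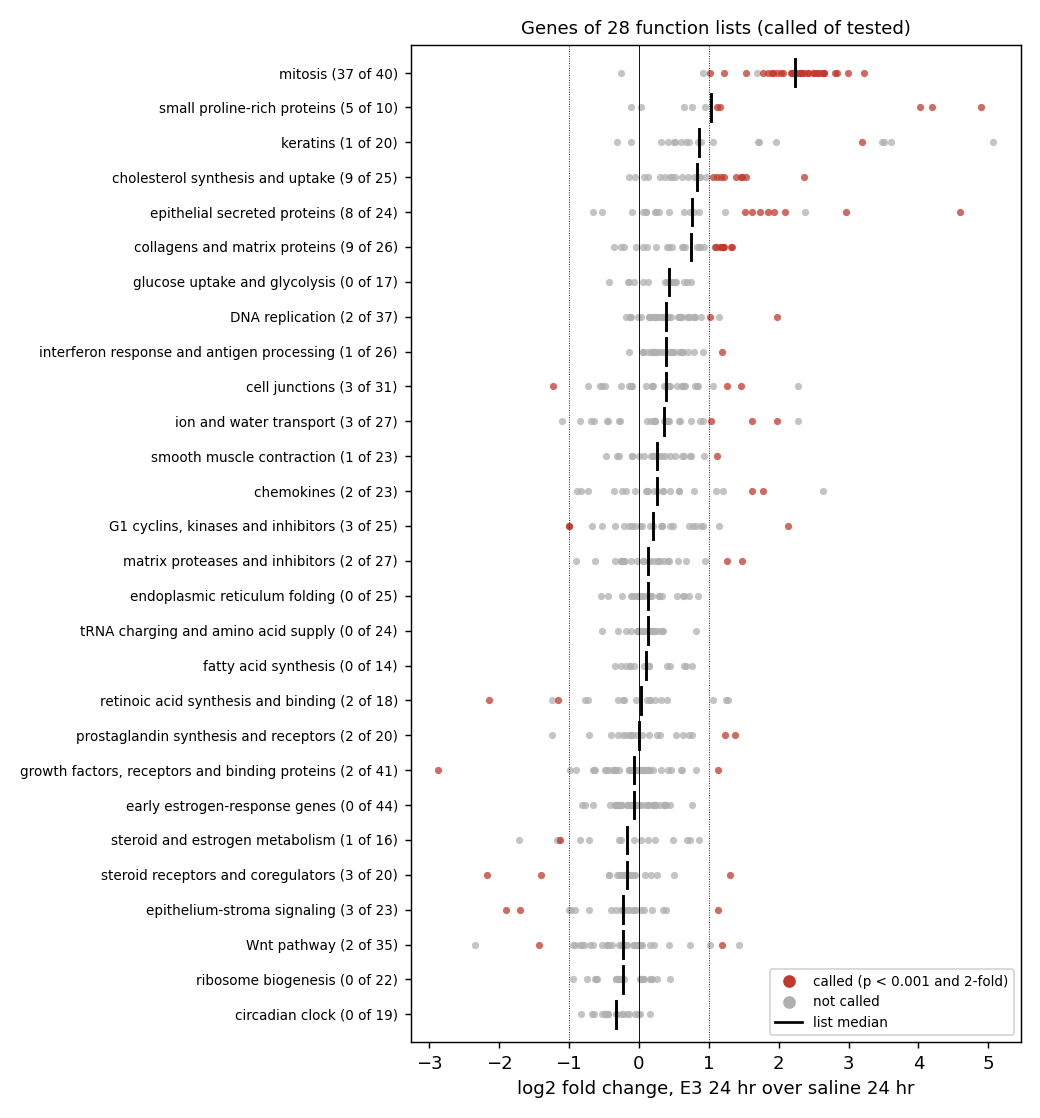
Log2 fold change of E3 24 hr over saline 24 hr for every tested gene of 28 function lists, ordered by list median (black bars), with called genes in red and others in grey, and dotted lines at a 2-fold change in either direction. In the mitosis list 37 of 40 genes were called, against 2 of 37 DNA replication genes and 0 of 44 early estrogen-response genes.

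Mitosis genes rose nearly as a whole. Of 40 tested, 37 were called higher and 0 lower, against 2.33% of all genes called higher, and the list median was a log2 fold change of 2.24. All 40 genes had groups that did not overlap, against 48.5% of all tested genes. The called rises ran from 1.02 to 3.22 on the log2 scale. The genes on the list drive entry into mitosis, build the spindle, hold the kinetochore, and cut the cell at the end. *Ube2c* (chromosome 2), the ubiquitin-conjugating enzyme of the anaphase-promoting complex, read -2.38, -1.96 and -2.82 on the saline arrays and 1.03, 0.90 and 0.58 on the E3 24 hr arrays. It rose 9.33-fold (log2 3.22 ± 0.37 SE, adjusted p = 0.000154). *Ccnb2* (chromosome 9), a B-type cyclin that activates Cdk1 for mitosis, read -0.10, 1.00 and -0.30 against 3.44, 3.31 and 2.85 and rose 8.0-fold (adjusted p = 0.000169). *Ccnb1* (chromosome 13), the other B-type cyclin of mitosis, rose 7.11-fold (adjusted p = 0.00117). *Dlgap5*, a spindle protein that stabilizes kinetochore fibers, rose 6.97-fold (adjusted p = 0.000401).

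The kinases followed with smaller changes. *Cdk1*, the kinase that starts mitosis, read -1.60, -0.93 and -1.87 in saline and 0.65, 0.45 and -0.15 after E3, a 3.43-fold rise (adjusted p = 0.0013). *Aurkb*, the Aurora kinase of the chromosomal passenger complex, rose 3.95-fold (adjusted p = 0.00212). It passed the threshold in 3 of the 6 fits that left out 1 array, with log2 fold changes of 1.77 to 2.40. The call was lost without saline replicate 1, saline replicate 3, or E3 24 hr replicate 1. The 3 genes not called were *Top2a*, which untangles chromosomes (log2 1.69), *Incenp*, a passenger complex subunit (0.91), and *Pttg1*, or securin (-0.26). Of the arrays high in lymphocyte transcripts, saline replicate 2 had the highest mitosis median among saline arrays (0.66 above the saline mean) and E3 24 hr replicate 3 the lowest among E3 24 hr arrays (1.92 above it). The part of lymphocyte transcripts in these values was not tested, and without those 2 arrays 39 mitosis genes were called. Over the fits that left out 1 array, 32 to 39 were called. A change in the number of cells of a type and a change in RNA per cell cannot be told apart in whole tissue.

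The upstream sequences of the 3 mitosis genes with the largest rise that have a promoter in the reference are shown because this list moved as a block. They are the 250 bases before the start, read along the gene, from RefSeq on GRCm38.p6. The windows are *Ube2c* chr2:164769679-164769928 (plus strand), *Ccnb2* chr9:70421555-70421804 (minus strand) and *Ccnb1* chr13:100786487-100786736 (minus strand). Capitals mark any match, on either strand, to the CHR element of cell cycle genes (TTTGAA), the CCAAT box bound by NF-Y (CCAAT), an E2F-type site (TTTNNCGC), a sterol element (TCACNCCAC) or the consensus estrogen response element.

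Ube2c: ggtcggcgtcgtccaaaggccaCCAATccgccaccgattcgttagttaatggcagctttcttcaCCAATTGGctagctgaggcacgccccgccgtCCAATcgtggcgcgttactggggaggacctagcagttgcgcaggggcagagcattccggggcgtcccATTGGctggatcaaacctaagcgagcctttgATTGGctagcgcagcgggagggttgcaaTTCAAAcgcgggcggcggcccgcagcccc

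Ccnb2: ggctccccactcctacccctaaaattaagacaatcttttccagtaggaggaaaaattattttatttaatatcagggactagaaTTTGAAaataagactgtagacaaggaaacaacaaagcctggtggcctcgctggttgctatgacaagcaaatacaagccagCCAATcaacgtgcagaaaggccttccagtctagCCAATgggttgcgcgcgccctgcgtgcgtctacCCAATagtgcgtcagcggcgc

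Ccnb1: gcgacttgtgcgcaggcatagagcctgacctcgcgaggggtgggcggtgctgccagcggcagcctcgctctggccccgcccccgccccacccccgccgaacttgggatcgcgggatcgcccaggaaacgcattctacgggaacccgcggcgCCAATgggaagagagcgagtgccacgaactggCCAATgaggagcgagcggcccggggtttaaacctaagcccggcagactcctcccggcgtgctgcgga

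*Ube2c* held 6 CCAAT matches and 1 CHR match, *Ccnb2* 3 and 1, and *Ccnb1* 2 and 0. Of the 37 called mitosis genes 29 had a promoter in the reference that was used. A CCAAT match was present in 23 of these 29 and in 33.8% of 32851 promoter windows of the same length, and a CHR match in 10 of the 29 and in 16% of all windows. E2F-type letters were found in 2 of the 29 and in 4.28% of all, and sterol or estrogen elements in 0. A gene counted when any of its promoters in the reference held the match, whereas windows of the background were counted singly. A gene with several promoters thus had more chances of a match, and the shares are not like for like. These counts describe letters and were not tested.

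DNA replication genes changed much less than mitosis genes. Of 37 tested, 2 were called higher and 0 lower, the list median was 0.40, and 19 were above saline at an adjusted p below 0.05, which 31.2% of all tested genes reached in either direction. Over the fits that left out 1 array, 1 to 4 genes of this list were called. *Tk1*, the thymidine kinase of the salvage pathway, read -1.13, -0.14 and -1.35 in saline and 1.20, 1.41 and 0.69 after E3 and rose 3.93-fold (adjusted p = 0.00111). *Gins2*, listed in the files as 4833427B12Rik, is a subunit of the replicative helicase. It rose 2.02-fold (adjusted p = 0.000783), close to the threshold, and kept its call in 3 of the 6 fits that left out 1 array, at log2 0.92 to 1.18. Its call was lost without saline replicate 3, E3 24 hr replicate 1, or E3 24 hr replicate 2, and with normexp correction (0.99). *Mcm2*, a subunit of the same helicase, read 0.03, 0.38 and 0.12 against -0.05, 0.07 and -0.04. *Pcna*, the polymerase clamp, read 3.62, 3.62 and 3.36 against 3.69, 3.84 and 3.48. For both genes the arrays of the groups overlapped. *Mcm5* was at log2 0.59 (adjusted p = 0.035).

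Among G1 cyclins, kinases and inhibitors 3 of 25 genes were called, and 0 to 5 over the fits that left out 1 array. *Ccnd2*, a D-type cyclin of G1, fell 2.0-fold (adjusted p = 0.000323), from 3.21, 2.85 and 3.04 to 1.83, 2.10 and 2.16. *Cdkn1c*, or p57, an inhibitor of cyclin-dependent kinases, fell from 3.96, 3.75 and 3.86 to 3.08, 3.03 and 2.46 (adjusted p = 0.0011). Both lay at the 2-fold limit, and each kept its call in 4 of the 6 fits that left out 1 array. *Ccnd2* lost it without replicate 1 of either group (log2 -0.90 at the smallest). *Cdkn1c* lost it without saline replicate 1 or E3 24 hr replicate 3 (log2 -0.80 at the smallest). *Cdkn2a*, an inhibitor of Cdk4 and Cdk6, was not well above background on any saline array and was at least 1.65-fold higher after E3 (adjusted p = 0.00467). It was called in 1 of those 6 fits (log2 1.73 to 2.55), the fit without saline replicate 2, and not with normexp correction (1.44).

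**Figure D3:**
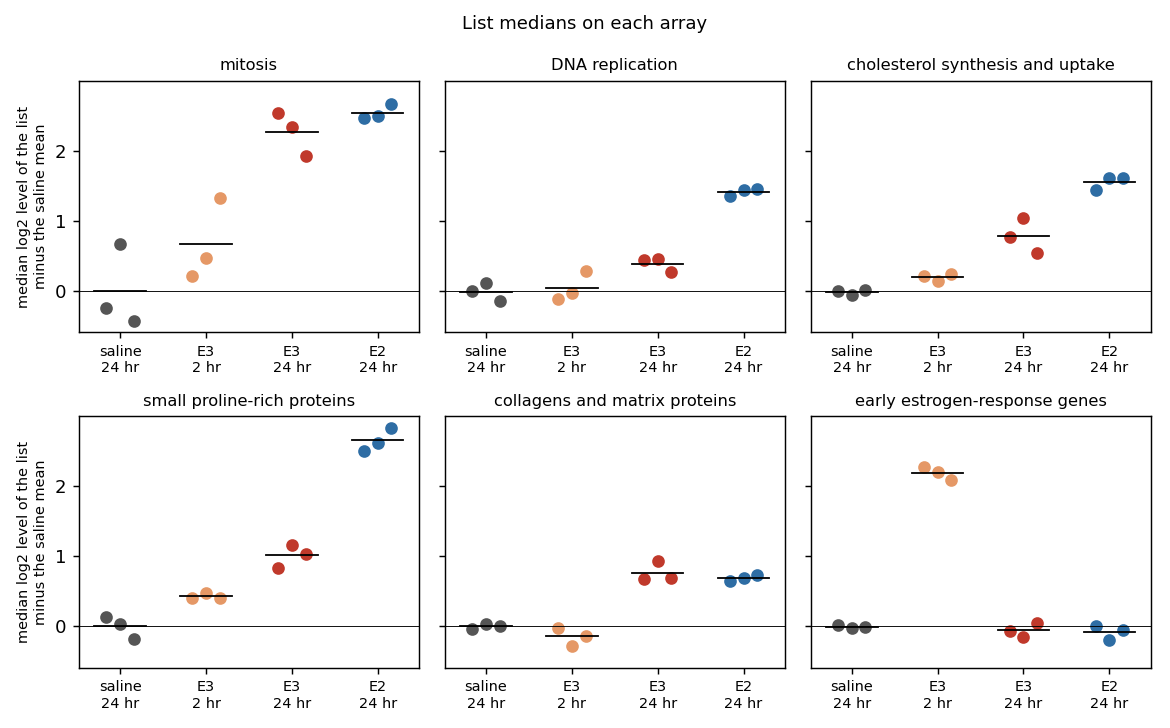
Median level of the genes of 6 lists on each array, as log2 difference from the mean of the saline arrays (vertical axis), for saline 24 hr, E3 2 hr, E3 24 hr and E2 24 hr, with points for arrays and bars for group means. Mitosis medians stood 1.92 to 2.53 above saline after E3 24 hr and 2.46 to 2.66 after E2 24 hr, whereas DNA replication medians stood at 0.27 to 0.46 and 1.35 to 1.46.

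Part of the cholesterol synthesis and uptake list was called. Of 25 tested, 9 were called higher and 0 lower, with a list median of 0.83 on the log2 scale and 18 above saline at an adjusted p below 0.05. Of all tested genes 2.33% were called higher, and 31.2% reached that adjusted p in either direction. *Fdps*, which makes farnesyl diphosphate, read 0.74, 0.79 and 0.64 in saline and 2.18, 2.51 and 2.07 after E3, a 2.88-fold rise (adjusted p = 3.35e-05). The arrays of the groups lay well apart. *Idi1*, the isopentenyl diphosphate isomerase, rose 2.74-fold (adjusted p = 0.000476). Over the fits that left out 1 array, 7 to 12 genes of this list were called. The fatty acid synthesis list had 0 of 14 called, and its smallest p belonged to *Fads2*, a desaturase, at log2 0.65.

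Upstream sequences are shown for the 3 called cholesterol genes with the largest rise among those in the reference, as a second set of genes that moved together. The windows are *Idi1* chr13:8885356-8885605 (plus strand), *Mvd* chr8:122443423-122443672 (minus strand) and *Cyp51* chr5:4104698-4104947 (minus strand), on GRCm38.p6. The array design places the *Idi1* probe on chromosome 2, unlike this reference. *Mvd* is mevalonate diphosphate decarboxylase, and *Cyp51* the lanosterol demethylase. They are marked in the same way.

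Idi1: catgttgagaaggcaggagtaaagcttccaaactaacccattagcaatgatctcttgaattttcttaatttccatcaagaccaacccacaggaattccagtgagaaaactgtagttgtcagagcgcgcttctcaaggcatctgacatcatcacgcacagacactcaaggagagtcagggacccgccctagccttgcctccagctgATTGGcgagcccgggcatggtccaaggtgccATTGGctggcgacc

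Mvd: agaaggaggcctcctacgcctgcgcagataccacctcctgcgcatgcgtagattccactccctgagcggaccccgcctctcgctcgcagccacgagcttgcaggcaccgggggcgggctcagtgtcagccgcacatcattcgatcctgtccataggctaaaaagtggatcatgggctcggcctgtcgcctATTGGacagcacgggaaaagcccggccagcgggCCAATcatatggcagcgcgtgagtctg

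Cyp51: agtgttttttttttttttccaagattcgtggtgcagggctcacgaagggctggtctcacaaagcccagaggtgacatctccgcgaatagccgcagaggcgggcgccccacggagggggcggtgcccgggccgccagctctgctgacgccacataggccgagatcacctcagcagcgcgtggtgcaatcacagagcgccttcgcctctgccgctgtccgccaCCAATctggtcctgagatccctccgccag

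Counted in the same way, by any promoter of a gene, all 5 of the 9 called genes with a promoter that was used held a CCAAT match. The sterol element as spelled above was found in 0 of the 5 and in 1.05% of all windows, and the estrogen response element in 0 of the 5 and in 0.0639% of all.

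Barrier and secreted proteins of the epithelium made up the largest individual rises. Of 10 tested small proline-rich protein genes, which build the cornified envelope, 5 were called higher and 0 lower (median 1.03). *Sprr2d* read -7.64, -6.85 and -7.24 in saline and -3.43, -1.29 and -2.34 after E3, a 29.6-fold rise (log2 4.89 ± 0.52 SE, adjusted p = 0.000109). *Sprr1a* rose 18.2-fold (adjusted p = 0.0002), *Sprr2f* 16.3-fold (adjusted p = 4.4e-05) and *Sprr2e* 2.24-fold (adjusted p = 0.000434). Several of these near-identical genes may share hybridization. E3 24 hr replicate 2, the array high in *Krt5*, was the highest for *Sprr2d*, *Sprr1a*, *Sprr2f* and *Sprr2e*. Without it the log2 rises were 4.36 for *Sprr2d*, 3.43 for *Sprr1a*, 3.81 for *Sprr2f* and 1.02 for *Sprr2e*, all still called. With normexp correction they were 3.51 for *Sprr2d*, 3.74 for *Sprr1a*, 3.89 for *Sprr2f* and 1.24 for *Sprr2e*, all called.

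Keratins varied more between the E3 arrays. Their median was 0.87, and 1 of 20 was called. *Krt85*, a hard keratin, read -8.16, -7.26 and -8.04 against -3.57, -4.59 and -5.72 and rose 9.16-fold (adjusted p = 0.000418). It was well above background on 2 of the saline arrays. With normexp correction it stood at log2 1.92 and was not called. *Krt6a*, a keratin of stressed or proliferating epithelium, had the largest fitted change of the list (5.06), which rested on a value of -0.32 on E3 24 hr replicate 2 against -6.63 and -7.31 on the others, and was not called.

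Of 24 epithelial secreted proteins 8 were called higher and 0 lower (median 0.77). *Olfm4*, a secreted glycoprotein of epithelial crypts, was not well above background on any saline array and was at least 13.5-fold higher after E3 (-5.08, -2.55 and -5.19, adjusted p = 0.00154). Without E3 24 hr replicate 2, the highest array, it was still called, and the bound was 7.46-fold. With normexp correction it stood lower, at log2 2.67, and was called. *Spink12*, a protease inhibitor, rose 7.81-fold (adjusted p = 0.000696). *Clca1*, a secreted regulator of chloride currents, read 3.89, 3.22 and 3.86 against 5.80, 5.55 and 5.91, a 4.27-fold rise (adjusted p = 0.0002). *Muc4*, a membrane mucin, rose 3.82-fold (adjusted p = 0.000555). In the whole list 12 of 24 genes had groups that did not overlap, a share close to the 48.5% of all tested genes.

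Transport and junction genes were called singly. Of 27 ion and water transport genes 3 were called higher. *Car12*, a membrane carbonic anhydrase, rose 3.09-fold (adjusted p = 0.000416), *Car2*, the cytosolic enzyme, 2.05-fold (adjusted p = 0.000743), and *Aqp4*, a water channel, 3.95-fold (adjusted p = 0.00561). *Aqp4* was highest on E3 24 hr replicate 2 (-4.29 against -6.29 and -6.05) and without it stood at log2 1.36 and was not called. It was also lost without any 1 saline array and with normexp correction (1.85). *Car2* was called in 2 of the 6 fits that left out 1 array (log2 0.95 to 1.18), those without saline replicate 1 and without E3 24 hr replicate 2, and not with normexp correction (0.93). Of 31 junction genes, *Gjb2*, a connexin, rose 2.75-fold (adjusted p = 0.000111), *Tjp3*, a tight junction scaffold, rose 2.40-fold (adjusted p = 2.11e-05), and *Cldn1*, a claudin, fell from -0.48, -0.66 and -0.67 to -1.43, -1.79 and -2.28 (log2 -1.23, adjusted p = 0.00176). *Cldn1* stood at -1.03 with normexp correction and was not called.

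Collagens and other matrix proteins gave called rises between 1.10 and 1.34 on the log2 scale. Of 26 collagens and matrix proteins 9 were called higher and 0 lower (median 0.75), against 2.33% of all genes called higher. At an adjusted p below 0.05, 18 were above saline, and 31.2% of all tested genes reached it in either direction. *Col6a2*, a chain of microfibrillar collagen, read 0.58, 0.73 and 0.66 against 1.84, 2.19 and 1.95 and rose 2.53-fold (adjusted p = 4.5e-05). *Sparc*, a collagen-binding glycoprotein, rose 2.50-fold (adjusted p = 5.22e-05) and *Col5a2*, a fibril collagen chain, 2.34-fold (adjusted p = 0.000262). *Col1a1*, the main fibril collagen, rose 2.31-fold (adjusted p = 0.00428), and passed in 0 of the 6 fits that left out 1 array, though its log2 fold change stayed between 1.12 and 1.27. It was not called with normexp correction either (1.11). *Adamts2*, which trims procollagens, rose 2.39-fold (adjusted p = 2.95e-05), and *Timp1*, an inhibitor of matrix proteases, 2.78-fold (adjusted p = 0.00094). They were the 2 called of 27 proteases and inhibitors. In smooth muscle 1 of 23 genes was called, *Actg2*, the enteric actin, at 2.17-fold (adjusted p = 0.000194), and it was not called without E3 24 hr replicate 2 (log2 0.96) or with normexp correction (just under 2-fold).

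Of the 693 function-list genes 12 were called lower, a share near the 1.55% of all genes called lower. *Ihh*, the epithelial hedgehog ligand that acts on the stroma, read -2.11, -2.28 and -2.61 in saline and -3.95, -4.11 and -4.64 after E3 and fell by 1.90 on the log2 scale (adjusted p = 0.000113). *Ptch1*, its receptor and target, fell from -2.07, -2.23 and -1.97 to -3.63, -3.72 and -4.00 (log2 -1.70, adjusted p = 0.000499). With normexp correction neither was called, at -0.99 for *Ihh* and -0.92 for *Ptch1*. The third call in the list of 23 epithelium-stroma genes was *Alox15*, a lipoxygenase, 2.20-fold higher (adjusted p = 0.00192), which was lost without saline replicate 1 or E3 24 hr replicate 3 (log2 1.07 to 1.22). *Cyp26b1*, which degrades retinoic acid, fell from 0.97, 0.42 and 0.54 to -1.73, -1.27 and -1.50 (log2 -2.14, adjusted p = 0.00193). It was lost without replicate 1 of either group (log2 -1.97 to -2.25). *Rarres1*, a retinoic acid responsive gene, fell by 1.15 (adjusted p = 0.00259). It passed in 3 of the 6 fits that left out 1 array (-1.25 to -1.06) and was lost without saline replicate 1, E3 24 hr replicate 1, or E3 24 hr replicate 2. With normexp correction *Rarres1* stood at -0.08 and was not called, and *Cyp26b1* at -1.92 and called. These 2 were the calls among 18 retinoic acid genes.

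Hormone signaling genes gave single calls. *Nr0b1*, or Dax1, a repressor of nuclear receptors, read -5.88, -5.48 and -6.19 against -7.55, -8.39 and -8.13 (log2 -2.18, adjusted p = 0.000689). It was well above background on 3 saline arrays and on 1 E3 24 hr array. Its value turned to 0.48 with normexp correction. *Fkbp5*, a receptor cochaperone, fell by 1.40 on the log2 scale (adjusted p = 0.00296) and was called in 1 of the 6 fits that left out 1 array (-1.56 to -1.25), the one without saline replicate 3. *Esr2*, the second estrogen receptor, was called higher but was not well above background on any of the 6 arrays, so no fold is given. *Star*, which moves cholesterol into mitochondria, fell by 1.12 (adjusted p = 0.00283). It was called in 2 of those 6 fits (-1.31 to -1.01), without saline replicate 1 and without E3 24 hr replicate 2. With normexp correction *Fkbp5* stood at -0.64 and *Star* at -0.69, neither called. *Fzd9*, a Wnt receptor, fell from -5.33, -5.62 and -5.59 to -6.75, -6.90 and -7.17 (log2 -1.43, adjusted p = 0.00144), and its value turned to 0.49 with normexp correction. *Dkk1*, a secreted Wnt inhibitor, was called higher (adjusted p = 0.002). It was well above background on no saline array and on only 1 array after E3, so no fold is given. It passed in 3 of the 6 fits (log2 0.96 to 1.46), and was lost without saline replicate 1, saline replicate 2, or E3 24 hr replicate 1, and with normexp correction (1.37).

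Growth factor, lipid mediator and immune genes were called in small numbers as well. *Erbb3*, a receptor of neuregulins, read 1.44, 1.22 and 1.32 against 2.51, 2.45 and 2.43 and rose 2.20-fold (adjusted p = 0.000251). *Igfbp1*, an insulin-like growth factor binding protein also made in liver, fell by 2.87 on the log2 scale (adjusted p = 0.00256) and had the saline replicate 1 excess of liver genes (-2.12 against -4.06 and -4.01). Without E3 24 hr replicate 2 or replicate 3 it was not called, at values from -3.20 to -2.23 over the 6 fits, nor with normexp correction (-0.93). *Ptgr1*, a prostaglandin reductase, rose 2.61-fold (adjusted p = 4.88e-05) and *Alox12e*, an epidermal lipoxygenase, 2.34-fold (adjusted p = 0.000159). *Ccl20*, which attracts lymphocytes and dendritic cells, rose 3.44-fold (adjusted p = 0.00415). It was called in 2 of the 6 fits (log2 1.48 to 2.18), those without replicate 2 of either group, and not with normexp correction (1.6). *Cxcl17*, a mucosal chemokine, rose 3.08-fold (adjusted p = 0.00214) and was lost without saline replicate 2 or E3 24 hr replicate 3 (1.36 to 1.85), the lymphocyte-rich arrays. *Oas1a*, an interferon-induced enzyme, rose 2.29-fold (adjusted p = 0.00124).

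In 7 lists no gene was called. The early estrogen-response list, made of genes that estrogens induce within hours, had 0 of 44 called by limma at 24 hr, 5 at an adjusted p below 0.05, and a median of -0.07. At E3 2 hr, 34 of the 44 were called higher, against 4.77% of all genes. *Fos*, the immediate early transcription factor, read -2.63, -2.45 and -2.17 in saline and -1.68, -1.97 and -1.33 at 24 hr (log2 0.76, adjusted p = 0.0237), and stood at log2 5.31 over saline at 2 hr. *Inhbb*, an activin subunit, stood at 4.22 at 2 hr and -0.11 at 24 hr. The smallest p of the list at 24 hr was that of *Dusp4*, a phosphatase of MAP kinases, at log2 -0.81. Ribosome biogenesis had 0 of 22 called and a median of -0.23, with *Rrs1*, a large subunit assembly factor, at -0.61. The circadian clock list had 0 of 19 called and a median of -0.33, with *Cry1*, a clock repressor, at -0.47. That value turned to 0.087 with normexp correction. Endoplasmic reticulum folding (*P4hb*, a disulfide isomerase, 0.65), glycolysis (*Gpi1*, 0.51) and tRNA charging and amino acid supply (*Psat1*, of serine synthesis, 0.82) also had 0 called.

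Across all genes, the 15 largest rises among reliably detected genes were led by *Sprr2d*, *Sprr1a* and *Sprr2f*. *Ifne*, the interferon of reproductive epithelium, followed. It read -5.81, -6.05 and -5.75 in saline and -2.44, -2.84 and -2.39 after E3, a 9.96-fold rise (adjusted p = 1.29e-05). *Crtac1*, an extracellular matrix protein, rose 9.65-fold, and *Serpinb5*, or maspin, 9.05-fold. *Serpinb5* was highest on E3 24 hr replicate 2 (-0.55 against -2.26 and -2.84) and stood at log2 2.51 without it, still called. *Ccna1*, an A-type cyclin better known from the germ line, rose 7.41-fold (-6.92, -6.43 and -7.08 against -3.55, -3.76 and -4.45, adjusted p = 0.000184). *Cdkn3*, a phosphatase of cyclin-dependent kinases, rose 7.28-fold. *Serpina9*, *Fer1l4* and *Fam3b* rose 7.82, 7.79 and 7.42-fold.

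The fallen genes were sorted in view of the liver transcripts. Of 135 tested liver genes 66 were called lower and 1 higher, *Cfi*, a complement protease. *Alb*, serum albumin, read 3.46, 1.96 and 1.61 on the saline arrays against -1.85, -2.92 and -2.90. In 63 of the 66 genes saline replicate 1 exceeded the mean of the other saline arrays at least 2-fold, as did 394 of all 17719 tested genes. The same excess was seen in 34 further fallen genes off the liver list, many of them cytochrome P450s and other enzymes. They include 8 of the 15 largest falls by the naming rule: *Cyp2c40* (log2 -4.65), *Cyp2a5* (-3.86), *Rdh7* (-3.81), *Cyp3a41a* (-3.80), *Ftcd* (-2.80), *Akr1c20* (-2.69), *Pon1* (-2.55) and *Igfbp1*. None of these 8 was called with normexp correction. These genes were set aside by a rule made after their values were seen, and 175 fallen genes remained. No lymphocyte gene of 52 was called by limma in E3 24 hr against saline (1 had an adjusted p below 0.05), nor any of 24 exocrine pancreas or 15 fat genes. Pancreas genes vary so much within the E2 24 hr and E3 2 hr groups, which enter the estimate of spread, that this count does not bear on them. In skeletal muscle *Tnni2* and *Myh2* were called higher, and of granulocyte genes *Mpo* was.

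Of the 15 largest falls that remained, *Inmt* had the highest signal. *Inmt*, an indole methyltransferase, read 4.91, 4.53 and 4.57 in saline and 2.70, 2.57 and 2.15 after E3 and fell by 2.19 on the log2 scale (adjusted p = 0.000186). *Ano2*, a calcium-gated chloride channel, read -1.0, -1.59 and -1.27 against -3.95, -4.22 and -5.07 and had the largest fall (-3.13, adjusted p = 3.35e-05). *Coch*, the matrix protein cochlin, fell by 1.96, *Npl*, a sialic acid lyase, by 2.09, *Myoc*, or myocilin, by 2.03 and *Apod*, a lipid-carrying apolipoprotein, by 1.83. *Gstt4* fell by 1.96, and *Kcnip2*, a potassium channel subunit, by 1.79. With normexp correction *Myoc* (-1.27), *Apod* (-1.09), *Gstt4* (-1.07) and *Kcnip2* (-0.29) were not called, whereas *Inmt* (-2.27), *Ano2* (-2.11), *Coch* (-1.91) and *Npl* (-1.90) were. Calls that depended on single arrays were *Krt35* (-2.54), *Efcab6* (-2.21) and *Fam107a* (-2.01), each called in 1 of the 6 fits that left out 1 array, with ranges of -2.87 to -2.30, -2.49 to -1.80 and -2.26 to -1.79. *Krt35* kept its call without saline replicate 3, and the others without E3 24 hr replicate 1. With normexp correction *Krt35* stood at -0.19 and *Fam107a* at -0.77, neither called. *Adh4* (-2.20), *Efcab6* and 2310021N16Rik (-2.38) turned above 0 with normexp correction, and each was well above background on 2 of the 3 E3 24 hr arrays.

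**Figure D4:**
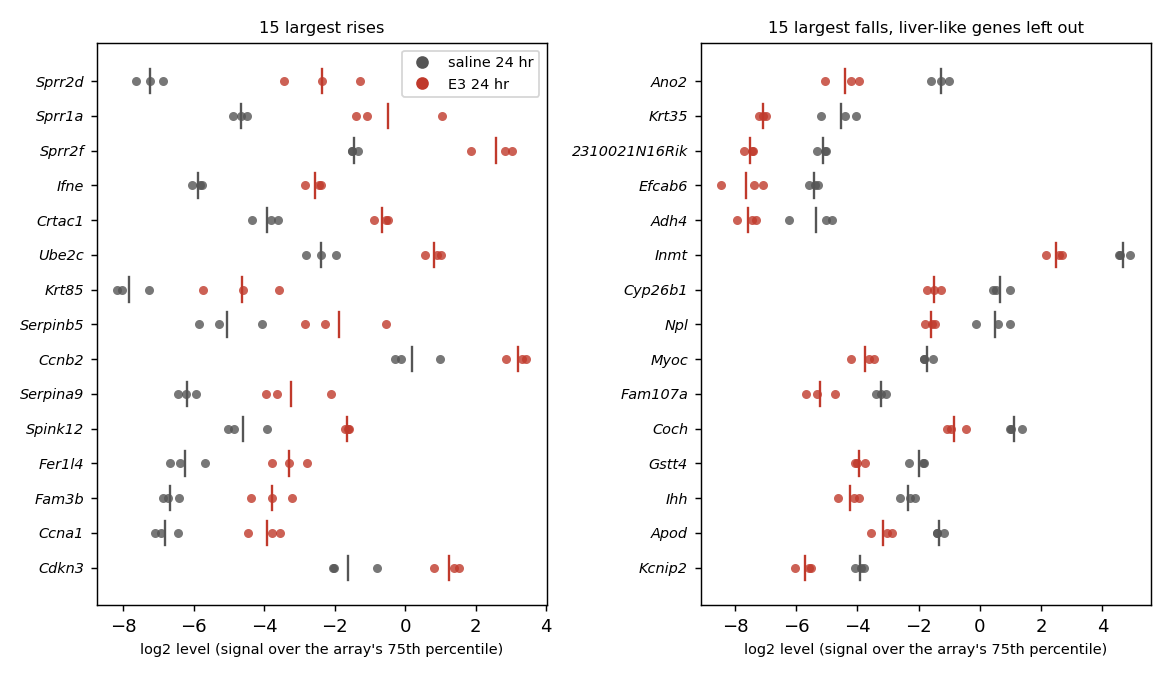
Log2 level (horizontal axis, 0 is the 75th percentile of the array) on the 3 saline arrays (grey) and the 3 E3 24 hr arrays (red) for the 15 largest rises and for the 15 largest falls left after genes with the liver-like excess on saline replicate 1 were removed, with group means as bars. The groups do not overlap for any of these genes, which the naming rule required, and *Sprr2d* spans the widest gap at 29.6-fold.

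E3 and E2 were compared directly at the same dose and time. Both compounds shared the saline arrays, so the difference E3 24 hr minus E2 24 hr was tested on its own, with p-values adjusted over all probes. The E2 24 hr group holds the array with a pancreas sum of 574.2. The part of pancreas transcripts was not tested beyond leaving out arrays. These were that array with the highest one of E3 2 hr, or replicates 2 and 3 of both groups, which leaves 1 array in each. Of 693 function-list genes 116 differed, 25 with E3 higher and 91 with E3 lower, against 934 of all 17719 genes (5.27%), 502 higher (2.83%) and 432 lower (2.44%). Without the pancreas-rich arrays 106 function-list genes differed, 23 higher and 83 lower. That fit kept replicate 3 of both groups, with pancreas sums of 9.06 for E2 24 hr and 21.0 for E3 2 hr. In the mitosis list 0 of 40 differed by the call rule in limma, with or without those arrays. *Ccnb2* stood at log2 3.00 for E3 and 2.73 for E2, a difference of 0.27 (95% interval -0.50 to 1.04, adjusted p = 0.588 by limma). *Ube2c* stood at 3.22 and 3.53, a difference of -0.31 (95% interval -1.12 to 0.49, adjusted p = 0.546). For *Cdk1* the difference was -0.81 (95% interval -1.49 to -0.13) and for *Aurkb* -0.68 (-1.51 to 0.14), so the intervals reach past a 2-fold difference for both, and that of *Cdk1* lies below 0. *Mad2l1*, a spindle checkpoint protein, differed by -0.77 (adjusted p = 0.00275), short of 2-fold. DNA replication genes, in contrast, were lower with E3 than with E2 in 17 of 37 (20 without the pancreas-rich arrays), and 26 of the 37 were called higher in E2 24 hr against saline, where 7.96% of all genes were. *Mcm2* differed by -1.86 (adjusted p = 7.62e-06), *Mcm5* by -1.63 (adjusted p = 8.36e-05) and *Pcna* by -1.18 (adjusted p = 1.54e-05).

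Counts for other lists ranged widely. Cholesterol genes were lower with E3 than with E2 in 10 of 25, the same number without the pancreas-rich arrays. *Fdps* differed by -1.66 (adjusted p = 7.62e-06). Small proline-rich genes were lower in 8 of 10 (7 without those arrays) and ribosome biogenesis genes in 8 of 22 (8). Endoplasmic reticulum folding and tRNA charging were each lower in 6 genes with all arrays and in 4 without the pancreas-rich ones. In collagens and matrix proteins *Col6a2* was lower (-1.46), and 2 genes were higher, neither of them without those arrays. Wnt pathway genes were higher with E3 than with E2 in 6 of 35, in a list that stood lower with E2. Against saline its median was -0.22 with E3 and -0.54 with E2, and with E2 12 genes were called lower and 1 higher. Larger changes with E3 than with E2 were seen in single genes. *Ccna1* was 2.23 higher with E3 on the log2 scale (adjusted p = 0.000468), standing at 2.89 over saline against 0.66 for E2. *Fkbp5* was 1.42 lower in log2 terms (difference -1.42, adjusted p = 0.00218), standing at -1.40 against 0.03, and this difference was not called without the pancreas-rich arrays (-1.22).

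The E3 arrays at 2 and 24 hr differed in 210 of 693 function-list genes, 110 higher and 100 lower at 24 hr, against 2699 of 17719 genes (15.2%), 9.48% higher and 5.76% lower. Mitosis genes were higher at 24 hr in 23 of 40, and 35 of 44 early estrogen-response genes were lower. These counts include E3 2 hr replicate 2, with its pancreas sum of 1382. Without it and E2 24 hr replicate 2, 179 function-list genes differed, 86 higher and 93 lower. The mitosis genes higher at 24 hr then numbered 9 of 40, with a list median of 1.42 in place of 1.57, whereas 36 early estrogen-response genes were lower. A fit without replicates 2 and 3 of both groups leaves 1 array in each, and beyond it the part of pancreas transcripts was not tested. E3 2 hr replicate 3, which had the highest lymphocyte sum of the series (263.5), also had the highest mitosis median of its group (1.33 over saline), and its part in the difference was not tested. *Mad2l1* was the mitosis gene that went the other way, at 4.37 over saline at 2 hr and 1.22 at 24 hr. In all, 38 genes off the set-aside lists were called in opposite directions at the 2 times with a called difference, 22 rising and 16 falling at 24 hr. Of all genes 6.68% were called lower at 2 hr. *Hrh1*, a histamine receptor, stood at log2 3.65 at 2 hr and -1.52 at 24 hr (difference -5.17, adjusted p = 6.51e-09), and its fall at 24 hr was not called with normexp correction (-1.14). *Ihh* stood at 1.37 and -1.90 (difference -3.27, adjusted p = 1.33e-07). *Trpv6*, an epithelial calcium channel, stood at -1.86 and 2.31 (difference 4.17, adjusted p = 6.26e-08), and *Ifne* at -1.01 and 3.32 (difference 4.32, adjusted p = 2.02e-08). *Krt85* kept its direction but stood far lower, at 10.80 and 3.20 (difference -7.60, adjusted p = 9.95e-08). *Ptch1*, the receptor of *Ihh*, was below saline at both times, at -2.91 and -1.70.

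**Figure D5:**
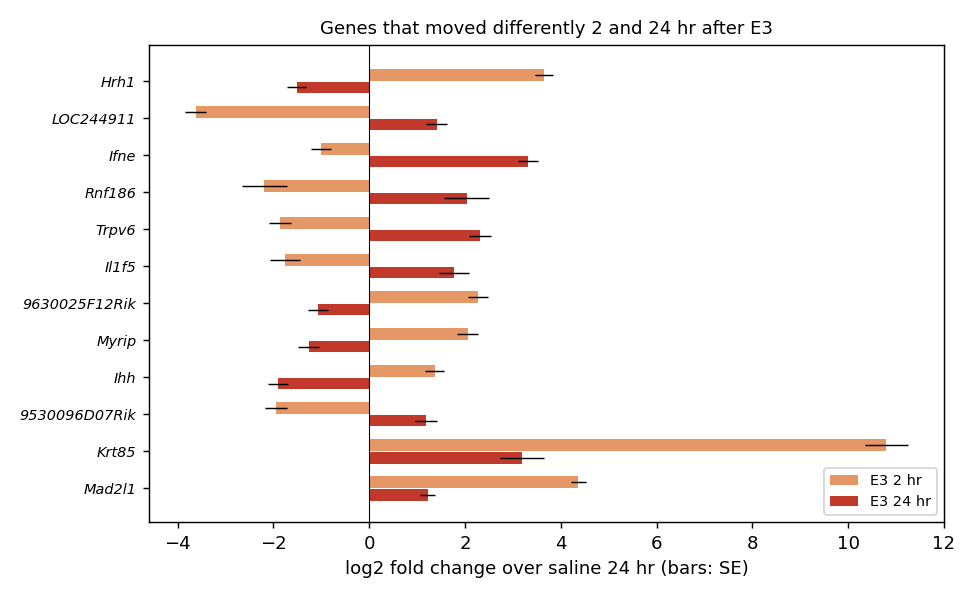
Log2 fold change over saline 24 hr (bars, with the SE of the fit) at 2 hr and 24 hr after E3 for the 10 genes with opposite calls and the largest difference between times, and for *Krt85* and *Mad2l1*. *Hrh1* stood at 3.65 and then -1.52, *Trpv6* at -1.86 and then 2.31, and both times are set against the same 24 hr saline arrays.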

How the data were processed

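Uterine RNA (500 ng) was labeled with Cy3 and hybridized to one-color Agilent arrays, and spots were quantified by the authors in Feature Extraction 9.5.3.1 (Agilent, version from the file headers). The deposited values are processed intensity on a linear scale, background subtracted but not normalized between arrays, and the scanner files hold the same values with flags and background. Outlier spots were left out, spots of a probe were averaged on the log2 scale, and the log2 of each array's 75th percentile was subtracted. A probe was tested where 2 or more arrays of any 1 group had it well above background, which left 34760 of 41174 probes (84.4%). Means of the 5 groups were fitted to all 15 arrays with limma 3.58.1 (R 4.3.3), with Benjamini-Hochberg adjustment over all probes. A gene is its brightest probe. On simulated data for E3 24 hr against saline (34296 probes), 94 of 100 probes changed 3-fold and 93 of 100 changed 8-fold were called, with 6 false calls. The simulated noise was normal and independent, without the differences in marker transcripts or slide between these arrays. These counts are thus no error rate for the data. "At least" folds compare the brighter group with the detection limit of the dim one. The number of arrays limits precision.

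The comparison and the gene lists were chosen with earlier results of these data known, whereas the arrays follow from their labels. Named genes were the 15 largest rises and falls among called, non-overlapping genes well above background on 2 arrays of each group and off the set-aside lists, up to 4 called genes per function list and direction (or the smallest p), and *Ube2c*, *Ccnb2*, *Cdk1* and *Aurkb*. Some genes that this rule names are not reported here. Genes beyond these (*Mcm2*, *Mcm5*, *Pcna*, *Fos*, *Inhbb*, *Mad2l1*, keratins, fallers after the liver sorting, and genes with opposite calls) were chosen after their values were seen. Gene symbols come from accessions matched to RefSeq for 22951 probes. Alternatives covered background correction, scaling, filters, thresholds, arrays used, slide and replicate blocks, and probes. Figures used matplotlib 3.10.9 (python 3.11.15).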

Additional observations from a re-analysis of the deposited data

Results flagged for a closer look

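The E3 response was compared between its 2 time points by a direct contrast, and the genes below differed between 2 and 24 hr. Of the function-list genes, 210 differed between the times, among them 35 early estrogen-response genes and 24 mitosis genes. Without E3 2 hr replicate 2 and E2 24 hr replicate 2, which were high in exocrine pancreas transcripts, 179 differed, among them 36 early estrogen-response genes and 10 mitosis genes. The log2 difference, 24 hr minus 2 hr, was -5.17 for *Hrh1*, 5.03 for LOC244911, 4.32 for *Ifne*, 4.22 for *Rnf186*, 4.17 for *Trpv6*, 3.54 for *Il1f5*, -3.35 for 9630025F12Rik and -3.32 for *Myrip*. The probe of 9630025F12Rik was not well above background on any E3 24 hr array, so its value is no measured level there. It was -7.60 for *Krt85*, -1.13 for *Ccnd2*, 1.93 for *Tjp3*, -2.61 for *Fzd9*, 1.92 for *Erbb3* and 2.05 for *Cldn1*. *Rnf186*, called at 24 hr against saline, lost that call in each of the 6 fits that left out 1 array (log2 1.79 to 2.22). No saline array was collected at 2 hr, so a change of untreated tissue with time and a change after E3 cannot be told apart here.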

How the results depend on the processing

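Among the totals, 1333 called probes became 555 with normexp background correction, 882 with probes of mean signal above 100, and 5544 with no minimum change. The 642 increased probes became 2579 with no minimum change. The 691 decreased probes became 64 with normexp correction, 375 with mean signal above 100, and 2965 with no minimum change. The function-list genes became 169 with no minimum change (101 before), and those that differed from E2 218 (116 before). Leaving out 1 array gave 1072 to 1322 called probes, 533 to 688 increased and 455 to 718 decreased, 87 to 101 function-list genes called, 105 to 118 that differed from E2, and 188 to 214 that differed from E3 2 hr. The lowest count of decreased probes came without E3 24 hr replicate 3. Increased probes made up 48.2% of the calls, against 58.6% with quantile normalization, 38.4% with no scaling, 57.5% with mean signal above 100, 60.2% without E3 24 hr replicate 3 and 88.5% with normexp correction. Under normexp the values of 7 genes changed sign, to 0.18 for 2310021N16Rik, 1.02 for 9630025F12Rik, 0.25 for *Adh4*, 0.087 for *Cry1*, 0.30 for *Efcab6*, 0.49 for *Fzd9* and 0.48 for *Nr0b1*, and the cause was not tested. Of 91 named genes called, 66 were called in every fit that left out 1 array, and none changed sign in those fits. Chosen after seeing the data, the fit without saline replicate 2 and E3 24 hr replicate 3 called 681 probes higher and 463 lower, and leaving out liver-like genes left 571 of the decreased probes. Also chosen after seeing the data, the fit without E2 24 hr replicate 2 and E3 2 hr replicate 2, the pancreas-rich arrays, called 589 probes higher and 653 lower against saline, and the calls of *Aqp4* and *Rnf186* were lost. Without replicates 2 and 3 of both groups, which leaves 1 array in each that is assumed to vary like the other groups, 569 were higher and 627 lower. The function-list genes that differed from E2 then numbered 66 and those that differed from E3 2 hr 142. The named genes not called against saline in that fit were *Aqp4*, *Ccl20*, *Cxcl17*, *Dkk1*, *Esr2*, *Fam107a*, *Fkbp5*, *Igfbp1*, *Rnf186* and 9630025F12Rik.

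The replicate numbers are shared between groups but did not pair the arrays. Deviations of same-numbered saline and E3 24 hr arrays correlated at 0.28, -0.46 and -0.43, and no array matched its own number best. With the replicate block 1281 probes were called (619 higher and 662 lower). Slide as a random block, with an estimated correlation of -0.02, gave 1359. The E3 24 hr arrays share slide 5 with no other group, so this fit cannot separate slide from treatment. With the 6 arrays of these groups alone 1080 were called, and mitosis calls fell to 28 of 40. Of 91 named genes called, 38 were not called with normexp correction and 23 not with the 6 arrays alone, among the latter *Cdk1*, *Aurkb*, *Tk1*, *Krt85*, *Olfm4*, *Serpinb5*, *Timp1*, *Cldn1* and *Oas1a*. With the fit limited to probes well above background in both groups, 521 probes were called lower, against 691 in the main fit.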

Other observations

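Some further gene families held called members. These families were put together after their values were seen and carry no test, and their counts stand beside 3.88% of all tested genes called. Of 12 tested interleukin 1 family genes, 3 epithelial members were called higher and 0 lower. *Il1f8* (interleukin 36 beta), an activator of barrier immunity, read -4.15, -4.30 and -4.42 in saline and -1.47, -1.94 and -1.93 after E3, a 5.69-fold rise (adjusted p = 1.29e-05 by limma). *Il1f5* rose 3.43-fold and *Il1f6* 3.00-fold. Of 6 gasdermin genes, which encode pore-forming proteins of epithelia, 3 were called higher, with *Gsdma* 3.51-fold and *Gsdmc3* 2.34-fold higher and *Gsdmc2*, not well above background in saline, at least 3.08-fold higher. Of 19 squamous epithelium genes 7 were called higher and 1 lower. *S100a14*, a calcium-binding protein of epithelia, rose 5.18-fold and was highest on E3 24 hr replicate 2 (2.04 against 0.87 and 0.09).

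Of 17 hedgehog pathway genes 4 were called lower and 0 higher, and the family median was -0.08, with 8 genes above and 9 below 0. Beside *Ihh* and *Ptch1* these included *Scube1*, a secreted protein (log2 -1.19). *Scube1* moved the other way with E2 (1.15, difference -2.34, adjusted p = 1.24e-06 by limma). *Gli1*, the pathway's transcription factor and target, stood at -0.99, just short of 2-fold, and *Smo*, the signal transducer, at 0.08. Of 18 *Klra* genes, receptors of natural killer cells, 8 were called lower at nearly the same size, from -1.16 for *Klra20* to -1.02 for *Klra10*. These close paralogs may share hybridization and are not independent. The separate natural killer list had 0 of 8 called by limma, with a median of -0.42 and 1 gene lower at an adjusted p below 0.05.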
